A study of Rattus norvegicus with 13 samples.

Results

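Apaf1, Casp9, Casp2, Casp6 and Dffa are 5 of the 96 gene probes on an apoptosis array that was used to compare the septal coronary arteries of old and young F344 rats, an inbred strain much used in studies of ageing. They were chosen by their symbols in the platform annotation, and each had 1 probe. The aged group held 6 arrays of total RNA from vessels of rats aged 26 months, and the young group held 7 arrays from rats aged 3 months. No treatment, transgene or sex is named in the labels, which do not say whether an array stood for 1 animal, a pool or a repeat, and p-values therefore cover array-to-array spread only, part of which may be technical. For the aged vessels the labels add that more endothelial apoptosis was seen by TUNEL and DNA fragmentation assays. Each deposited value is a linear ratio to the beta-actin signal of its own array, rounded to 2 decimals. The comparison asks whether transcripts of the mitochondrial death pathway change with age in the coronary wall.

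In the mitochondrial pathway, cytochrome c that leaves damaged mitochondria binds Apaf1, which assembles into the apoptosome, a wheel-shaped platform that recruits and activates the initiator caspase Casp9. Casp9 then cleaves executioner caspases. Casp2 is a separate initiator-type caspase that acts upstream of mitochondria after DNA damage and other stress, and Casp6 is an executioner known for cleaving nuclear lamins. Dffa, also called ICAD, is both the chaperone and the inhibitor of the nuclease Dffb (CAD): when caspases cut Dffa, the nuclease is freed and cuts DNA between nucleosomes, which makes the DNA ladder that fragmentation assays detect. These proteins are switched on mainly by cleavage and assembly, which a transcript array does not measure.

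The gene names rest on symbols: 5 of 5 symbols were found in a table of rat genes (RefSeq), against 0 of 5 gene IDs and 0 of 5 accessions of the annotation, so the organism of the probe sequences is not settled. Promoter windows of 300 bases, which end 50 bases after a start site, were taken from RefSeq (rat, build GRCr8) and were found for 5 of 5 genes. The 80 bases just before the outermost annotated start are shown for Casp9, Casp2 and Dffa, the members with a value on every array, because the levels of these genes over the arrays are compared further on. They lie on the plus strand at chr5:159391827-159391906 (Casp9), chr4:72116185-72116264 (Casp2) and chr5:164823727-164823806 (Dffa), and capitals mark CG dinucleotides.
Casp9: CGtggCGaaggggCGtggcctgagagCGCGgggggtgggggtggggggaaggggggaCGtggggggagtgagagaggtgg
Casp2: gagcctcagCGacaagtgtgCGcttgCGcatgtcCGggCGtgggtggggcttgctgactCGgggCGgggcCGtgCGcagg
Dffa: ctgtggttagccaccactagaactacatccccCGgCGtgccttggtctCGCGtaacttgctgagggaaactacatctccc
The whole windows held 24 CG dinucleotides for Casp9, 27 for Casp2 and 10 for Dffa, against a median of 7 over 33469 promoters. Those of Apaf1 and Casp6 held 43 and 16. The GC content was 72% for Casp9, 66% for Casp2 and 50% for Dffa. The GC box, searched as GGGCGG and, for the other strand, CCGCCC, was present in each of the 5 windows (3 matches for Apaf1 and Casp9, and 1 each for Casp2, Casp6 and Dffa), and in 33.1% of all promoters. A match is a description of the letters and not evidence of binding. Casp2 and Dffa, which had the highest correlation among the 3 genes shown, had promoters of unlike CG content. Whether CG content bears on correlation over the arrays was not tested.

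Apaf1, the scaffold of the apoptosome, had a value on 4 of 6 aged and 4 of 7 young arrays. Its ratios were 0.13, 0.09, 0.15 and 0.06 on aged replicates 1, 4, 5 and 6. They were 0.10, 0.12, 0.08 and 0.22 on young replicates 2, 4, 6 and 7. The groups overlapped throughout, with medians of 0.11 and 0.11 and a highest value in a young array. Apaf1 was the one member whose aged mean of log2 ratios was below the young one (log2 difference -0.25, SE 0.63, adjusted p = 0.96 by limma), and its 95% interval of -1.56 to 1.06 holds differences of either sign. The sign turned to 0.17 with blanks set to 0.01, to 0.038 without young replicate 7 and to 0.00084 without aged replicate 6.

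Casp9, the caspase that Apaf1 activates, had a value on all 13 arrays and the largest age difference of the 5. Its ratios ran from 0.13 to 0.43 with a median of 0.195 in aged arteries, and from 0.03 to 0.21 with a median of 0.06 in young arteries. Of the young arrays, 5 of 7 lay below the lowest aged value, and 3 of 6 aged arrays lay above the highest young value, which was that of young replicate 7. The fitted difference was 3.06-fold (95% interval 1.41 to 6.65, not adjusted for the number of genes; log2 difference 1.61, SE 0.54, n = 6 and 7). It ranked 2 of 70 by p and did not pass the adjustment (adjusted p = 0.23 by limma; exact permutation p = 0.016, adjusted p = 0.38). The 2 lowest young values, 0.03 on replicates 1 and 2, are 3 rounding steps from 0. Moving every ratio by 0.005 against the difference left it at 1.46 on the log2 scale. Without both of these arrays it was 1.11 (adjusted p = 0.44 by limma), and without young replicate 7 it was 1.87 (adjusted p = 0.051 by limma).

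Casp2, the stress-activated initiator, had ratios from 0.3 to 0.76 with a median of 0.655 in aged arteries and from 0.12 to 0.86 with a median of 0.25 in young arteries. The young arrays fell into a lower set, replicates 1 to 4 at 0.12, 0.2, 0.22 and 0.25, and a higher set, replicates 5 to 7 at 0.47, 0.5 and 0.86. The highest value of all 13 arrays was thus a young one. The split was not particular to Casp2. The mean log2 ratio of the 12 other gene probes measured on every array was -2.30 to -0.82 on replicates 1 to 4. On replicates 5 to 7 it was -0.32 to 0.30. Relative to these probes Casp2 was -1.36 to -0.76 on replicates 1 to 4 and -0.82 to -0.52 on replicates 5 to 7, so the sets overlapped. The log2 difference was 0.90 (SE 0.50, 95% interval -0.13 to 1.94, adjusted p = 0.64 by limma), and without both young replicates 1 and 2 it was 0.51.

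Casp6, the lamin-cleaving executioner, had ratios of at most 0.14, with a value on 4 of 6 aged and 4 of 7 young arrays. Aged replicates 3 to 6 had ratios of 0.14, 0.03, 0.1 and 0.07. Young replicates 2, 3, 5 and 6 had 0.01, 0.06, 0.09 and 0.05. The log2 difference of 0.86 (SE 0.75, 95% interval -0.70 to 2.42, adjusted p = 0.86 by limma) depended on young replicate 2, whose 0.01 is the smallest ratio deposited: without it the difference was 0.19. With ratios this small, moving each by 0.005 against the difference brought it to 0.51.

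Dffa, the inhibitor of the DNA-cutting nuclease, had ratios from 0.54 to 2.08 with a median of 1.29 in aged arteries and from 0.08 to 1.51 with a median of 0.54 in young arteries. Here 3 of 7 young arrays lay below the lowest aged value, and 2 of 6 aged arrays, replicates 5 and 6 at 2.08 and 1.91, lay above the highest young value. The fitted difference was 2.33-fold (95% interval 0.994 to 5.45; 1.22 ± 0.60 (SE) on the log2 scale, adjusted p = 0.64 by limma). At the low end of the young group stood replicate 2, at 0.08 against 0.3 for the next, and without it the log2 difference was 0.77.

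**Figure D1:**
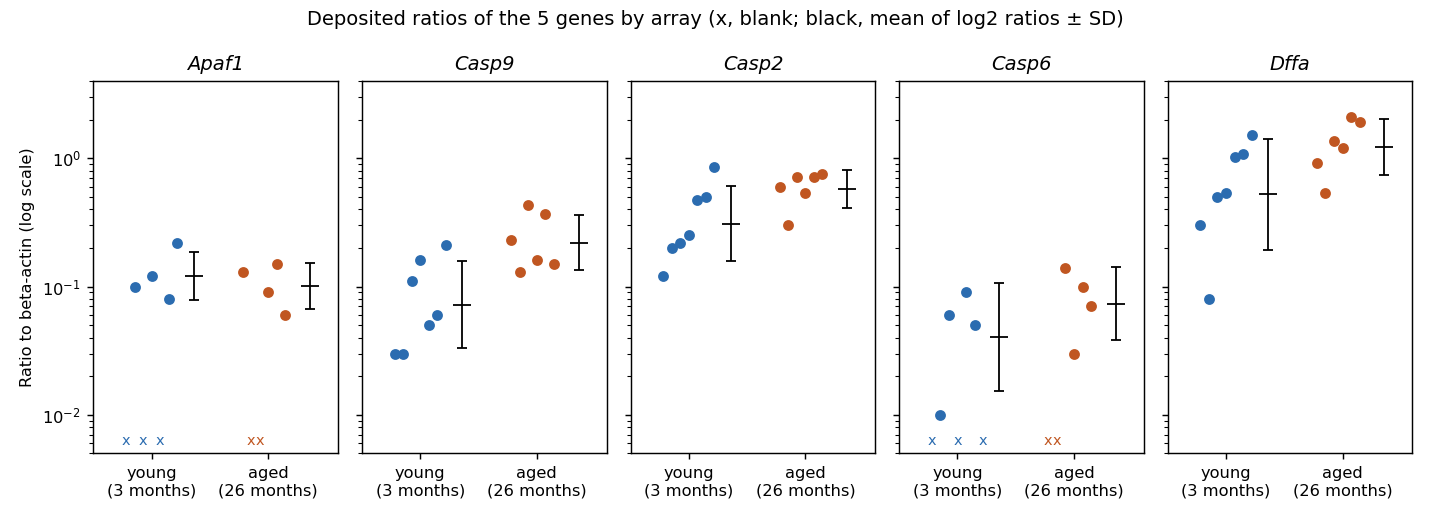
Ratio to beta-actin on a log axis for each of the 5 genes, with 1 point per array, blue for the 7 young and orange for the 6 aged arrays, crosses for blanks and black bars for the mean of log2 ratios ± SD. The Casp9 points of 5 young arrays lie below the lowest aged point (0.13), while the Apaf1 points of the groups share one range (0.06 to 0.22).

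Read against the whole array, 0 of the 5 genes passed the threshold of 0.05 on the adjusted p, where 1 of the 70 probes tested did (1.43%), namely Tnf, the cytokine tumour necrosis factor (2.06 on the log2 scale, adjusted p = 0.031 by limma). At an unadjusted p under 0.05 limma gave 1 of the 5, Casp9, against 4 of the 70 probes (5.71%), and the exact permutation test gave the same member against 6 of the 70 (8.57%). The values of aged and young arrays were non-overlapping for 0 of the 5 genes and for 2.86% of the 70. The aged mean of log2 ratios was the higher one for 4 of the 5, Casp9, Dffa, Casp2 and Casp6, against 57.1% of the 70 probes. The median log2 difference was 0.90 over the 5 genes and 0.06 over the 70. In order of difference from the highest, Casp9 was 2, Dffa 4, Casp2 8, Casp6 9 and Apaf1 50 of 70.

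The overall level of the arrays moved with these positions. The 12 other gene probes with a value on all 13 arrays had a median log2 difference of 0.78, and 11 of the 12 were higher in aged arteries. Their mean log2 ratio ran from -0.60 to 0.33 on aged arrays and from -2.30 (young replicate 1) to 0.30 (young replicate 7) on young arrays. Each gene was therefore also expressed relative to these 12 probes within the array, a measure from which the beta-actin denominator cancels. On that scale Casp9 was -2.09 ± 0.74 in aged and -3.01 ± 0.85 in young arteries (mean log2 ± SD, n = 6 and 7), a difference of 0.92 (95% interval -0.06 to 1.91, adjusted p = 0.37 by limma). Dffa differed by 0.53 (-0.48 to 1.53), Casp2 by 0.21 (-0.54 to 0.97), Casp6 by 0.12 (-1.28 to 1.52) and Apaf1 by -0.71 (-1.97 to 0.56), where limma's adjusted p-values lay between 0.58 and 0.94. The same 4 of the 5 genes stayed above 0, against 27.1% of the 70 probes, whose median was -0.59. That share is not a like background for Casp9, Casp2 and Dffa, which have a value on every array. Many of the 70 probes have blanks, while the 12 probes average 0 on this scale by construction. Differences of the 12 ran from -0.79 (Traf4) to 0.57 (Gadd45a), a range that holds those of Dffa and Casp2. No gene passed by limma after centring on the 12 probes (0 of 70), 8 of the 70 had an unadjusted p under 0.05, and 0 of the 5 were among those 8. With each array centred on its reference genes (Actb, Gapdh and Rpl13a) in place of the 12 probes, 29 of the 70 were higher with a median of -0.19, and the members stood at 1.38 for Casp9, 0.98 for Dffa, 0.67 for Casp2, 0.57 for Casp6 and -0.56 for Apaf1. By limma 0 of the 70 passed on that scale and 4 had an unadjusted p under 0.05, Casp9 among them (unadjusted p = 0.014, adjusted p = 0.47 by limma). In total RNA of a whole vessel, fewer cells of a type and less RNA per cell cannot be told apart. Of 23 markers for leukocytes, fibroblasts, cardiomyocytes, smooth muscle and endothelium the array carried 1, Cd40, so neither the vessel label nor the cell makeup could be checked, and the part of either in these differences was not tested.

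**Figure D2:**
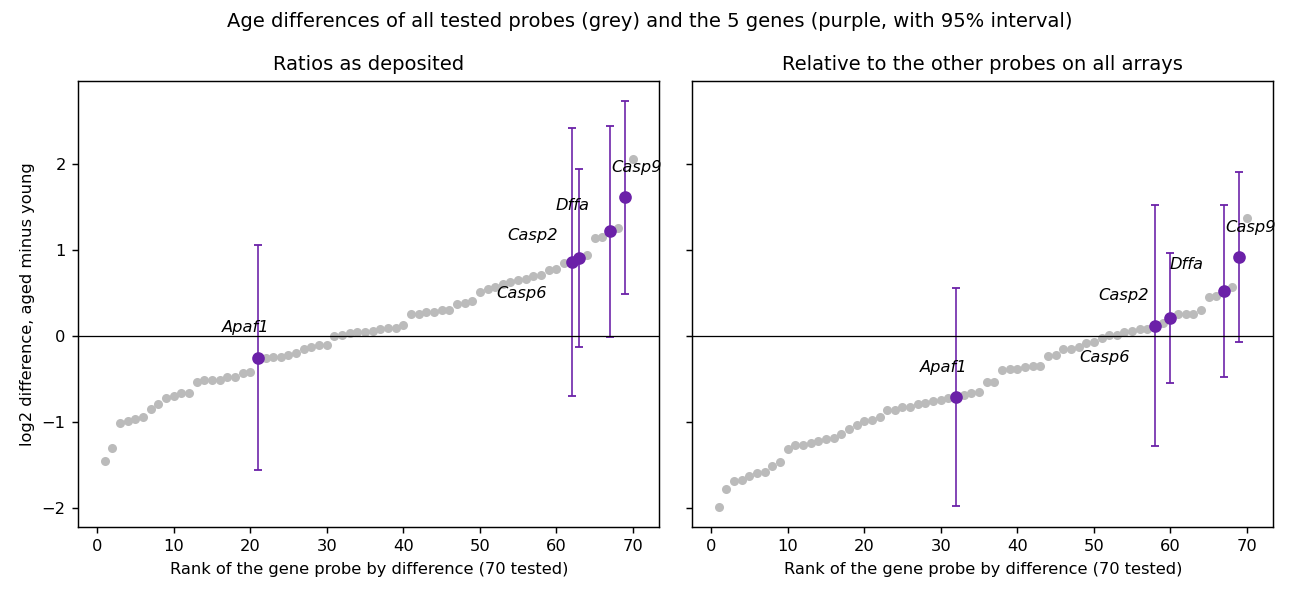
Log2 difference (aged minus young) of the 70 tested probes in order of size, as deposited on the left and relative to 12 other probes on the right, with the 5 genes in purple with their 95% intervals. Casp9, Dffa, Casp2 and Casp6 stand in the upper part of both orders and Apaf1 (-0.25 and -0.71) lower down, and the interval of Casp9 reaches below 0 on the right (-0.06 to 1.91).

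Ratios between 2 of the genes within an array ask whether members of the pathway shifted unequally. Since probes differ in how brightly they bind, such a ratio has no meaning as a relation of transcript numbers, and only its change between arrays is read. Of the 10 possible ratios 9 could be fitted, as Apaf1 and Casp6 shared 3 aged and 2 young arrays. None of the 9 passed by limma or by the exact permutation test, with adjustment over all 1747 ratios of tested probes, of which 0 passed by either. At an unadjusted p under 0.05 limma gave 0 of the 9, against 8.82% of the 1747, and the exact permutation test gave 1, Apaf1 over Casp9, against 6.7%.

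Apaf1 over Casp9, the platform over its caspase, was the ratio whose age groups did not overlap. The ratio of the Apaf1 value to the Casp9 value was 0.565, 0.563, 0.405 and 0.4 on aged replicates 1, 4, 5 and 6. It was 3.33, 0.75, 1.33 and 1.05 on young replicates 2, 4, 6 and 7. Every aged value lay below every young value, a separation found for 1 of the 9 ratios and for 5.44% of the 1747 (4.98% of those that also had 4 values in each group). The log2 difference was -1.52 (SE 0.80, 95% interval -3.18 to 0.13, adjusted p = 0.54 by limma). The exact permutation p of 0.029 is the smallest that 4 against 4 arrays can give, and its adjusted p was 0.61. Apaf1 over Dffa (-1.74, 95% interval -3.63 to 0.14) and Apaf1 over Casp2 (-1.01, -2.68 to 0.66) had the same sign, and they share the Apaf1 values of the same 8 arrays. Without young replicate 2 Apaf1 over Dffa stood at -0.94, and Apaf1 over Casp9 at -1.09.

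Casp9 over Casp6 had a log2 difference of 1.29 (95% interval -0.41 to 2.98) on 4 aged and 4 young arrays, and Casp6 over Dffa of -0.94 (-2.62 to 0.73). Casp9 over Casp2, measured on every array, averaged -1.39 ± 0.59 in aged and -2.10 ± 0.996 in young arteries (mean log2 ± SD, n = 6 and 7), a difference of 0.71 (95% interval -0.55 to 1.97, adjusted p = 0.70 by limma). Casp9 over Dffa differed by 0.40 (-0.92 to 1.71; 0.15 without young replicate 5 and 0.18 without young replicate 6), Casp2 over Casp6 by 0.22 (-1.51 to 1.95) and Casp2 over Dffa by -0.31 (-1.54 to 0.91). The intervals of these last 3 are wide enough to hold a doubling or more in at least one direction, so an equal shift of the members is not shown.

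**Figure D3:**
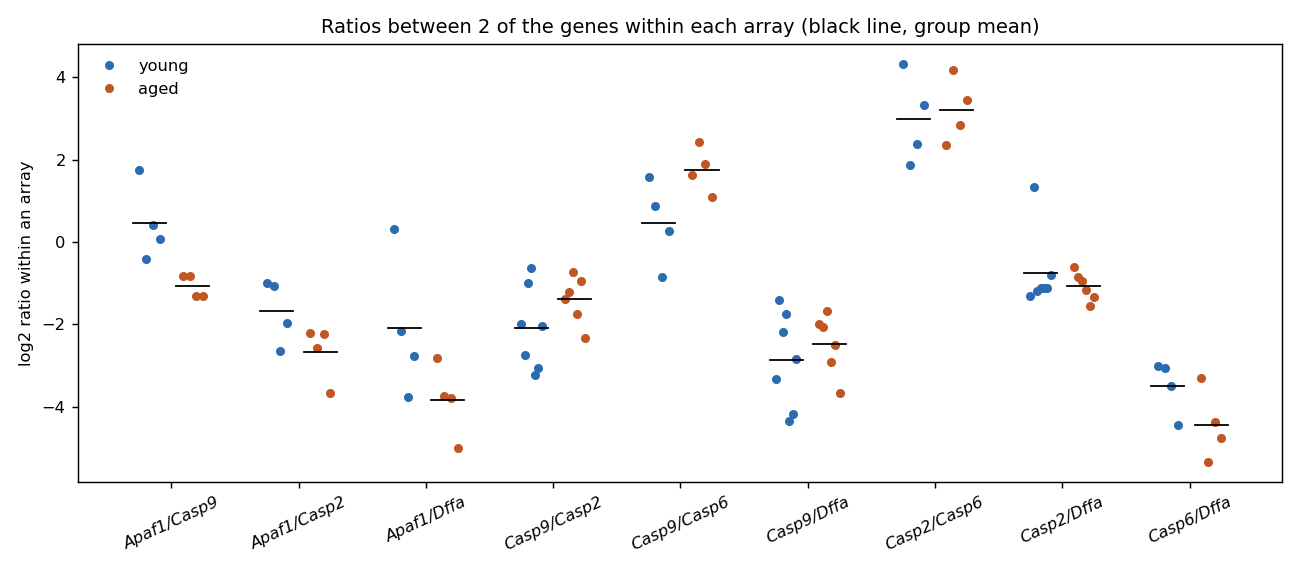
Log2 ratio of 2 genes within each array for the 9 fitted pairs, with 1 point per array (blue young, orange aged) and a black line at each group mean. The aged and young points of Apaf1 over Casp9 are apart (-1.32 to -0.82 and -0.42 to 1.74), and those of Casp2 over Dffa lie close together except for young replicate 2 at 1.32.

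Casp2 and Dffa varied together over the arrays. Going through young replicates 1 to 7, Casp2 was 0.12, 0.2, 0.22, 0.25, 0.47, 0.5 and 0.86 while Dffa was 0.3, 0.08, 0.5, 0.54, 1.02, 1.08 and 1.51. On aged replicates 1 to 6 Casp2 was 0.6, 0.3, 0.71, 0.54, 0.71 and 0.76 while Dffa was 0.92, 0.54, 1.37, 1.21, 2.08 and 1.91. Aged replicate 2 was the lowest of its group for both genes, and young replicate 7 the highest of its group for both. The labels do not say whether the numbers carry an order. The mean log2 ratio of the 12 other probes measured on every array was lowest on replicate 1 of each group. It was highest on the last replicate (-2.30 and 0.30 in young, -0.60 and 0.33 in aged arteries). The part of any such order was not tested.

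With the mean of each age group removed, the log2 ratios of Casp2 and Dffa had a Pearson r of 0.791 (permutation p = 0.0056, adjusted p = 0.040) and a Spearman rho of 0.930 (permutation p = 6.0e-05, adjusted p = 0.0045) over 13 arrays. The adjustment covers the 105 relations of Casp9, Casp2 or Dffa with any tested probe on at least 10 shared arrays, of which 14.3% passed by Pearson and 13.3% by Spearman. The correlations of Casp9 did not pass: r was 0.562 with Casp2 (permutation p = 0.089, adjusted p = 0.24) and 0.589 with Dffa (permutation p = 0.064, adjusted p = 0.20), with rho of 0.493 and 0.572 (adjusted p = 0.35 and 0.20 by permutation). Whether these correlations differ from that of Casp2 with Dffa was not tested.

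As deposited, Casp2 and Dffa were positively correlated in each age group, without passing the adjustment there. Among the 6 aged arrays r was 0.907 (exact permutation p = 0.019, adjusted p = 0.27 over 69 relations) and rho 0.841 (exact permutation p = 0.044, adjusted p = 0.58). Among the 7 young arrays r was 0.766 (exact permutation p = 0.037, adjusted p = 0.18 over 75 relations) and rho 0.964 (exact permutation p = 0.0028, adjusted p = 0.052). The 2 arrays farthest from the median of Casp2 were young replicates 1 and 2, and without them r was 0.923 (permutation adjusted p = 0.018). Without the same 2 arrays, which are also the farthest for Casp9, r of Casp9 fell to 0.253 with Casp2 and to 0.211 with Dffa. The adjusted p of Casp2 with Dffa was not below 0.05 without aged replicate 2 (r = 0.761, 0.10), young replicate 4 (0.799, 0.051), young replicate 5 (0.776, 0.073), young replicate 6 (0.772, 0.074) or young replicate 7 (0.740, 0.095), all by permutation.

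All genes of an array share its beta-actin signal and its overall level, whose parts in these correlations were not told apart. Over the 105 pairs of the 15 probes measured on every array the median r was 0.511. With the level of the 12 other probes, r was 0.879 for Casp2, 0.721 for Dffa and 0.570 for Casp9 over 13 arrays, and 0.759 for Casp6 and 0.253 for Apaf1 over 8 arrays. After centring on those probes r of Casp2 and Dffa was 0.481 (permutation p = 0.057, adjusted p = 0.43) and rho 0.577 (permutation p = 0.040, adjusted p = 0.68), while the median over the 105 pairs was -0.09. Within the 6 aged arrays the centred r was 0.764 but rho was -0.143, so the sign was not kept by rank. Within the 7 young arrays r was 0.413 and rho 0.643 (adjusted p from 0.62 to 0.96 by exact permutation in both groups). On the centred scale Casp9 had r of 0.140 with Casp2 and 0.273 with Dffa (adjusted p = 0.89 and 0.88 by permutation). Its rho was 0.088 with Casp2 and -0.258 with Dffa, the latter opposite in sign to r. In that centred set 1 of the 105 relations passed by Pearson (0.952%) and 0 by Spearman. It was the opposite movement of Casp2 and Tnfrsf1b, a TNF receptor that is itself among the 12 probes (r = -0.85, permutation adjusted p = 0.042), and it is named after its value was seen.

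**Figure D4:**
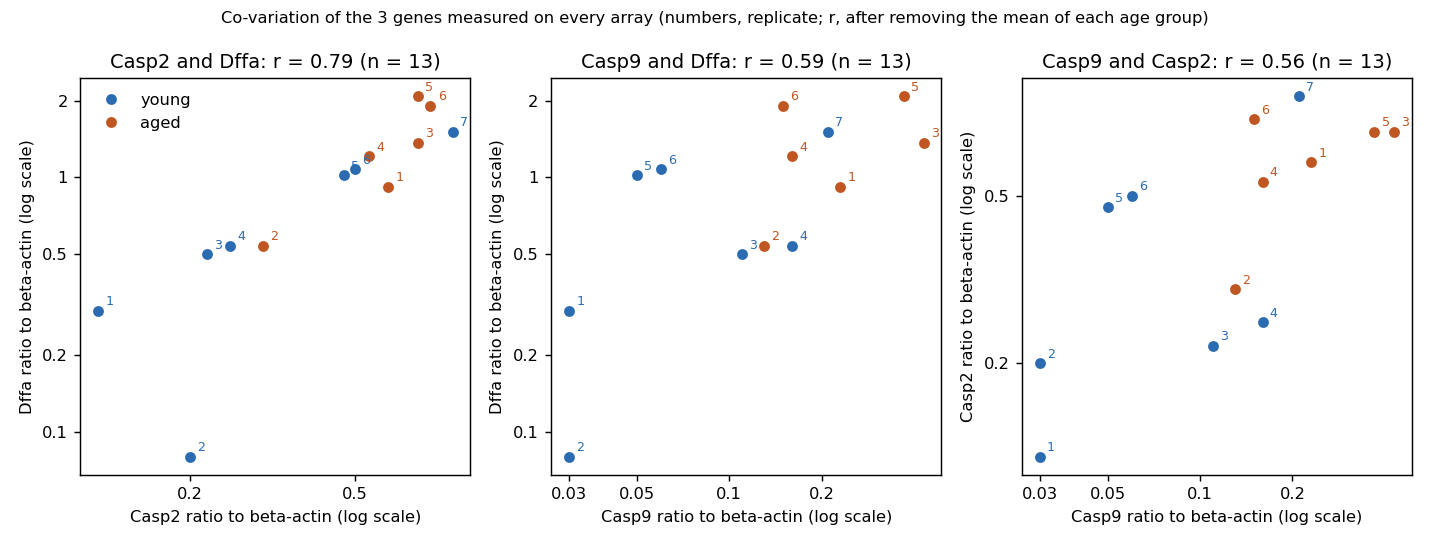
Ratios to beta-actin of Casp2, Dffa and Casp9 against each other on log axes, with 1 point per array, blue young and orange aged, numbered by replicate. Casp2 and Dffa lie along a line (r = 0.79 with age means removed) with young replicate 2 below it, while the points with Casp9 scatter more widely (r = 0.59 and 0.56).

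The ratio of Casp2 to Dffa within an array ran from 0.341 to 2.5 over the 13 arrays, a 7.32-fold range, where Casp2 spanned 7.17-fold and Dffa 26-fold. The value of 2.5 was that of young replicate 2, and the other 12 arrays lay between 0.341 and 0.652, a 1.91-fold range, where Casp2 spanned 7.17-fold and Dffa 6.93-fold. A level that both genes share would also keep their ratio steady, so the ratio does not separate the 2 genes from the level of the array. The SD of its log2 value within the age groups was 0.73 over all arrays, rank 24 from the smallest among the 105 pairs of probes measured on every array, whose median was 0.92. Without young replicate 2, left out after its value was seen, the SD was 0.27 and the rank 2 of 105. The corresponding SDs over all arrays were 0.84 for Casp9 with Casp2 and 0.98 for Casp9 with Dffa, near the median.

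By the rule of the highest Pearson r among 33 named probes, the genes whose pattern over the arrays was most like that of Casp2 were Bik, a BH3-only death promoter (r = 0.954 over 13 arrays, rho = 0.922, permutation adjusted p = 0.0031), and Mcl1, an anti-apoptotic Bcl-2 relative (r = 0.877 over 11 arrays, rho = 0.826, permutation adjusted p = 0.019). For Dffa they were Bcl2, the founding anti-apoptotic member (r = 0.863 over 13 arrays, rho = 0.841, permutation adjusted p = 0.015), and Bcl2l10, a further Bcl-2 relative (r = 0.862 over 11 arrays, rho = 0.709, permutation adjusted p = 0.019). For Casp9 they were Bcl2l10 (r = 0.786 over 11 arrays, rho = 0.864, permutation adjusted p = 0.031) and Bcl2 (r = 0.755 over 13 arrays, rho = 0.586, permutation adjusted p = 0.061). Centred on the 12 probes, of which Bik and Bcl2 are part, Bik remained the nearest to Casp2 (r = 0.740) and Bcl2l10 became the nearest to Dffa (r = 0.724) and stayed so for Casp9 (r = 0.663), each with an adjusted p of 0.31 by permutation. The second places then went to Pycard for Casp2 (r = 0.663), Bcl2a1d for Dffa (r = 0.681) and Birc3 for Casp9 (r = 0.604). By rank, the centred rho was 0.626 for Casp2 with Bik, 0.836 for Casp9 with Bcl2l10 and only 0.273 for Dffa with Bcl2l10. For the second places rho was 0.427 with Pycard, 0.473 with Bcl2a1d and 0.527 with Birc3. Probes without a symbol were left out of this rule, and some had a higher r than a named one. As deposited, such a probe stood between Bik and Mcl1 for Casp2 (r = 0.907). Another stood between Bcl2l10 and Bcl2 for Casp9 (r = 0.775), and after centring it was above Bcl2l10 (r = 0.693).

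Other genes of the pathway are given by list. Of 8 other caspases 5 were on the array and tested (Casp1, Casp4, Casp8, Casp12 and Casp14): 0 passed by limma, 0 had an unadjusted p under 0.05 (5.71% of the 70 probes), and their log2 differences ran from -0.15 to 0.13 with a median of 0.03. Of these 5, 4 were above 0 (57.1% of the 70 probes), and 1 was when set against the 12 probes (27.1%). Casp9 (1.61), Casp2 (0.90) and Casp6 (0.86) had larger fitted values than each of these 5; the difference between caspases was not tested. Of a list of 8 genes that release or hold back mitochondrial cytochrome c, 4 were on the array and 3 were tested. Their log2 differences were 1.16 for Bcl2, 0.64 for Bid and 0.05 for Bak1. Bid is a BH3-only protein that caspase cleavage activates, and Bak1 is a pore former of the outer membrane. None of these 3 passed by limma (smallest adjusted p = 0.64) or had an unadjusted p under 0.05. As deposited 3 of the 3 were above 0, and after centring 2 were, against the same 57.1% and 27.1%. Other Bcl-2 relatives were tested outside this list. Their log2 differences lay on both sides of 0, from -0.96 for Bad to 0.78 for Bik.

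Of the 5 tested caspase inhibitors 3 were higher and 2 lower in aged arteries, from -1.01 for Birc3 to 0.57 for Nol3, a CARD protein that holds back apoptosis, with a median of 0.25 (57.1% of the 70 probes were higher), and 0 were higher when set against the 12 probes (27.1% of the 70). Again 0 passed by limma and 0 had an unadjusted p under 0.05 (5.71% of the 70). Xiap, the direct inhibitor of Casp9 and the executioners, was measured on 2 of 6 aged and 4 of 7 young arrays, at 0.01 to 0.06. Dffb, the nuclease that Dffa holds, was likewise measured on 2 of 6 aged and 4 of 7 young arrays, where its ratios of 0.04 and 0.05 differed by 1 rounding step. Its relatives Cidea (5 of 6 aged and 2 of 7 young arrays) and Cideb (2 of 6 and 2 of 7) were also too sparse for the test, as was Cradd, the adaptor that brings Casp2 into its activating platform (1 of 6 and 3 of 7). The share of arrays with a value did not pass Fisher's exact test adjusted over 96 probes for any of these genes or for the 5 members (adjusted p = 1).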

How the data were processed

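The authors deposited, for 100 probes and 13 arrays, a linear ratio to beta-actin; this was read from the values, since the 2 Actb spots average 1 on each array. Scanner and upstream software: not given in the sources used here. Of the cells of the 96 gene probes 34.1% are blank, and blanks stayed missing. The ratios run from 0.01 to 4.51. Signal over background is unknown, and the number of arrays limits the precision.

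Log2 ratios were fitted with limma 3.58.1 in R 4.3.3 (two-sided, age as the only factor) on every gene probe with at least 3 values in each group (70 of 96), and adjusted by Benjamini-Hochberg. The 4 reference spots (Actb, Gapdh, Rpl13a) stayed out. Log2 ratios of all pairs of tested probes were fitted likewise. Correlations used deviations from age group means with 100000 permutations within age groups (NumPy 2.4.6), or exact tests within a group. The fits were run on simulated data with independent noise and a planted difference larger than that of any member. Power at differences of the members' size, or with a level shared within an array, was not examined. Promoter sequences came from RefSeq (GRCr8).

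The genes, lists and tests were chosen with earlier results of these data known. Named are the 5 genes, those past the threshold, the nearest by Pearson r, the pathway lists, and genes at the ends of a range. Alternatives covered centring, quantile normalization, a pseudocount of 0.02, blanks at 0.01, rounding, a filter at the 25th percentile, a block on the replicate number, other tests, and arrays left out.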

Additional observations from a re-analysis of the deposited data

Results flagged for a closer look

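In 28 groups of values searched (the 5 genes and their ratios, by age), chance marks about 1 in 20, and 1 was marked. On young replicate 2 the log2 ratio of Casp2 to Dffa was 1.32, while the other 6 young arrays lay at -0.81 or below. Dffa on that array was 0.08 and Casp2 0.2. Without it the age difference of this ratio was 0.034 in place of -0.31, and the Pearson r of Casp2 and Dffa was 0.944 in place of 0.791.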

How the results depend on the processing

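Of 380 recomputed values, 339 kept their direction and their side of the threshold (or, for the count, its size). The number of genes past the threshold was 1, and 0 with reference centring, centring on 12 probes, blanks at 0.01, rounding against the difference or the exact permutation test, and 0 to 1 with 1 array left out. No alternative brought a member past the threshold. Casp9 ran from 0.92 to 1.87, Dffa from 0.46 to 1.47, Casp2 from 0.21 to 1.15 and Casp6 from 0.12 to 1.29 on the log2 scale. Casp6 has no value under the filter, which removes it. Apaf1 turned to 0.17 with blanks at 0.01 and ran from -0.45 to 0.038 with 1 array left out. With 1 array left out, Apaf1 over Dffa ran from -2.30 to -0.94, Apaf1 over Casp9 from -1.81 to -1.09, Apaf1 over Casp2 from -1.33 to -0.68, Casp9 over Dffa from 0.15 to 0.64, Casp9 over Casp6 from 0.85 to 1.66, Casp9 over Casp2 from 0.52 to 0.95, Casp6 over Dffa from -1.33 to -0.65, Casp2 over Casp6 from -0.15 to 0.67 and Casp2 over Dffa from -0.41 to 0.034. The r of Casp2 and Dffa was 0.481 after centring (adjusted p = 0.43) and 0.791 with blanks at 0.01, where 335 relations were adjusted over (adjusted p = 0.14), and 0.740 to 0.944 with 1 array left out. Titles number arrays alike in both groups, and the labels name no pairing. Same-numbered arrays correlated from -0.20 to 0.36 over genes. Such a correlation leaves out the level of each array, so it cannot show whether the numbers pair arrays by level. With the replicate block, which uses 12 arrays, 0 of 58 genes passed by limma (12 at an unadjusted p under 0.05), Casp9 was 1.87 (adjusted p = 0.065) and Dffa 1.47 (adjusted p = 0.055). Leaving out both young replicates 1 and 2 was chosen after seeing the data.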

Other observations

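The young arrays varied more than the aged ones for each of the 5 genes. The SD of log2 ratios was 1.13 in young and 0.72 in aged arteries for Casp9, 0.97 and 0.50 for Casp2, 1.43 and 0.72 for Dffa, 1.39 and 0.96 for Casp6, and 0.63 and 0.59 for Apaf1. Over the 70 tested probes the young SD was the larger for 45. Relative to the 12 other probes it was larger for 3 of the 5 genes and 43 of the 70, and without young replicates 1 and 2 for 3 of the 5 and 35 of the 70. On that centred scale the SD of Casp2 was 0.30 in young and 0.45 in aged arteries. No test of these spreads was run.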
